A study of Homo sapiens with 18 samples.

Results

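RNA-seq profiles of 2 human lung cancer lines, SNU2535 and NCI-H3122, were compared for how their transcripts responded to TRI-611, which the series title calls a molecular glue degrader of the receptor tyrosine kinase ALK. Each line was given 3 µM TRI-611 or the solvent DMSO for 3 h, with 3 libraries of poly-A RNA per group. Cultures of both are long-established models of non-small cell lung cancer with an EML4-ALK fusion. The labels give the genotype of every sample as WT. A further line, NCI-H2228, was treated in the same way with 3 libraries per group and is used only for side values. The labels number the libraries of each group by batch, 1 to 3, and do not say that they came from separate cultures. A p-value here is therefore set by how far libraries of 1 group differ, a spread that may be purely technical.

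The response of a gene is the mean of log2(TPM + 1) with TRI-611 minus the mean with DMSO in the same line, where TPM is a level already divided by transcript length and scaled to the same total in every library. The contrast is the response in SNU2535 minus the response in NCI-H3122, so a positive contrast means a larger rise or a smaller fall in SNU2535. It was computed for the 13788 of 57500 genes in the deposited table that reached 1 TPM in at least 3 of the 6 libraries of both lines. Another 2464 genes reached that level in SNU2535 only and 1523 in NCI-H3122 only, and these have no contrast here. A contrast, or a response within 1 line, was called at a limma adjusted p under 0.05 over all 13788 genes, and a gene is said to rise or fall only where its response was called.

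ALK fusions signal through several routes at once. The RAS-ERK cascade drives immediate early genes, growth factor ligands and the phosphatases and adaptors that damp ERK in return. The PI3K-AKT route keeps FOXO transcription factors out of the nucleus and supports ribosome production together with MYC, and STAT3 drives its own feedback inhibitors such as SOCS3. A degrader acts on ALK protein, which was not measured, so the libraries hold only the downstream RNA.

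Lines differed in their response at 2769 genes (20.1% of those tested), 512 with a higher value in SNU2535 (3.71%) and 2257 with a lower one (16.4%). The median contrast of all genes was -0.09, with a median response of -0.03 in SNU2535 and 0.05 in NCI-H3122. That split depends on how the libraries are put on 1 scale. Median-ratio scaling moved the median contrast of all genes up by 0.111 and gave 1509 higher and 1329 lower calls, and quantile normalization moved it by 0.0957 and gave 965 and 1412. Calls made in the same direction with TPM as deposited and under both of these scalings are termed scale-independent here. They numbered 1611 (11.7%), with 481 higher (3.49%) and 1130 lower (8.2%). The share of TPM from mitochondrially encoded genes was 9.13% ± 0.69 with TRI-611 and 8.71% ± 1.18 with DMSO in SNU2535. In NCI-H3122 it was 12.6% ± 2.15 with TRI-611 and 11.2% ± 1.53 with DMSO (SD, n = 3 each), the highest library being TRI-611 replicate 3 at 15.0%. With those genes left out of the scale, 545 genes were higher and 2665 lower.

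**Figure D1:**
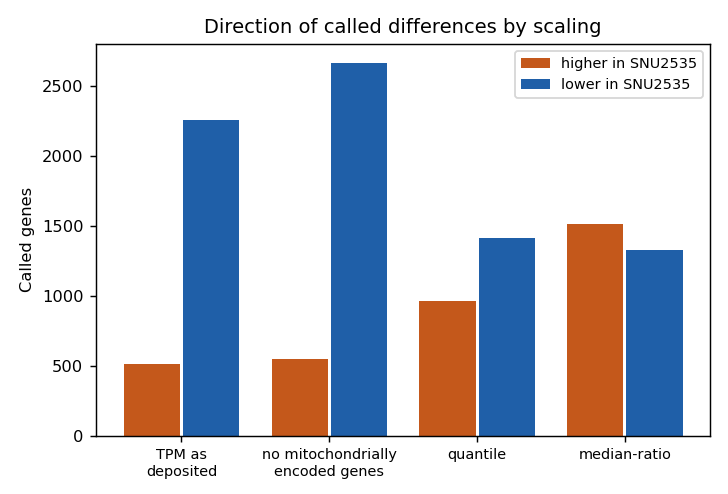
Numbers of genes (vertical axis) called with a higher (orange) or lower (blue) response in SNU2535 than in NCI-H3122, for 4 ways of scaling the libraries. Lower calls outnumber higher ones with TPM as deposited (512 higher, 2257 lower), without mitochondrially encoded genes and after quantile normalization (965 and 1412), but not under median-ratio scaling (1509 and 1329).

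Among the called genes, the most frequent pattern was a rise in NCI-H3122 alone, with 878 genes (31.7%). A fall in SNU2535 alone followed with 576 genes (20.8%). Another 281 genes fell in both lines with a larger fall in SNU2535, and 253 rose in both with a larger rise in NCI-H3122. Falls in NCI-H3122 alone accounted for 190 genes, and rises in SNU2535 alone for 128. At 262 genes (1.9% of those tested) the lines moved in opposite directions. The median size of a called contrast was 0.421, and 167 contrasts were at least 2-fold, 53 of them higher and 114 lower.

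**Figure D2:**
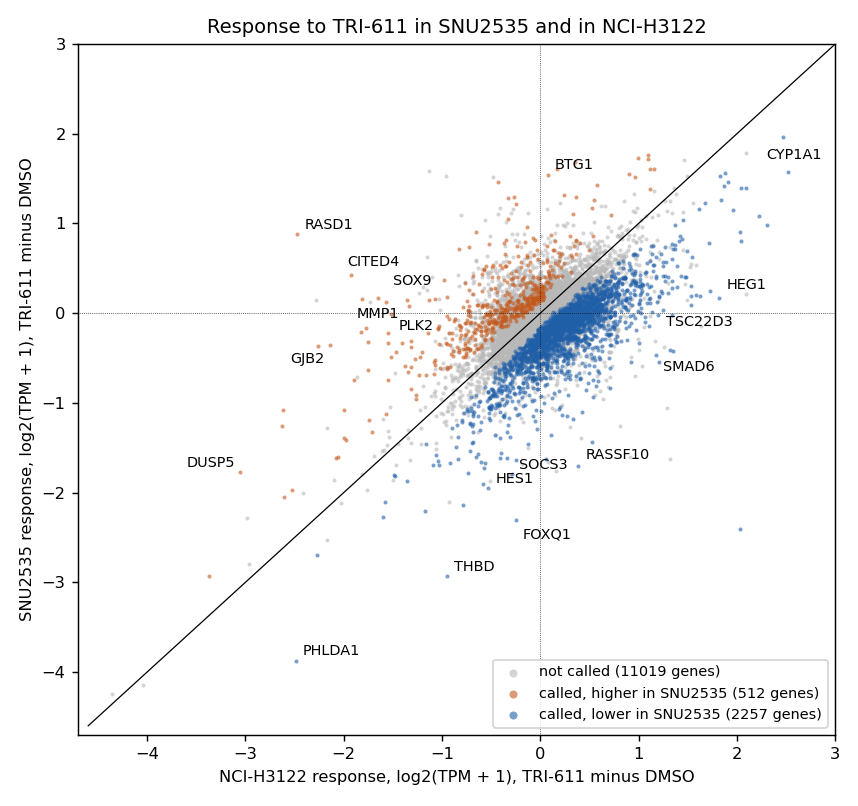
Response to TRI-611 of 13788 genes in SNU2535 (vertical axis) and in NCI-H3122 (horizontal axis), both as log2(TPM + 1), TRI-611 minus DMSO; each point is a gene and the diagonal marks equal responses. Called genes above the diagonal (orange, 512) include RASD1 and CITED4, and those below it (blue, 2257, of which 1130 are called under all 3 scalings) include THBD, FOXQ1 and RASSF10.

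Replicates correlated at r = 0.9903 to 0.993 across genes, and no pair of libraries held identical values. All 5 general epithelial markers averaged at least 1 TPM in both lines. Of 10 lung adenocarcinoma markers, 9 did so in SNU2535 and 5 in NCI-H3122, and the surfactant gene SFTPC was at 0 in every one of the 12 libraries. Leukocyte markers summed to at most 4.45 TPM in any library. The 6 fibroblast markers summed to 148 to 172 TPM with TRI-611 and 137 to 146 TPM with DMSO in SNU2535, and to 184 to 193 TPM with TRI-611 and 218 to 223 TPM with DMSO in NCI-H3122. In each line 2 of the 6 averaged at least 1 TPM, COL1A1 and LUM, while DCN did not pass 0.0119 TPM in any library. LUM, a matrix proteoglycan gene, rose in SNU2535 and fell in NCI-H3122 (contrast 0.64, SE 0.0577, limma adjusted p = 1.54e-05), and COL1A1, a collagen chain gene, was not called (contrast 0.07, SE 0.114, limma adjusted p = 0.723); both are described here after their values were seen. The part of these markers in the results was not tested. Read totals are not part of the TPM table, so depth is unknown. The strand setting of the counting is not given in the sources used here, so reads of genes that overlap another gene cannot be told apart from it. In GENCODE 29 this applies to MMP1 (with WTAPP1), ANTXR2, CTGF, DKK1, SOX9, BTG1, SMAD6, TSC22D3, PHLDA1, SOX2, ATOH8, SPRED2, MYCL, KSR1, MID1IP1, EPHA4, CCND1, CDC25C, POLR1C, MXD1, SNHG20, SNHG15, ULK1, BBC3, SESN1, SESN3, CCNG2, JAG2, LFNG, EFNB2, VEGFA, NRG1, KITLG, PLAUR, ITGB1, WWTR1, AHR, TIPARP, PLPP3, ZBED2, ALK and EML4 among the genes described below.

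Of the genes chosen for wide contrasts at a mean of 2 TPM or more in both lines, RASD1 had the largest positive contrast. It encodes a Ras-related GTPase induced by glucocorticoids (ENSG00000108551, chromosome 17, 17494437 to 17496395, GRCh38). It had 83.4, 85.8 and 82.3 TPM in SNU2535 with TRI-611 and 41.2, 47.5 and 47.2 TPM with DMSO. The NCI-H3122 libraries had 7.78, 10.9 and 8.65 TPM with TRI-611 and 57.4, 50.8 and 55.8 TPM with DMSO. Treated and control libraries were apart in both lines, with the treated ones on top in SNU2535 and at the bottom in NCI-H3122, giving a contrast of 3.35 (SE 0.136; limma adjusted p = 6.04e-08). CITED4, which encodes a coactivator that binds CBP and p300, also rose in SNU2535 and fell in NCI-H3122. Its levels were 18.8, 17.9 and 20.5 TPM in SNU2535 with TRI-611 and 13.9, 15.0 and 12.8 TPM with DMSO, and in NCI-H3122 11.0, 9.21 and 6.80 TPM with TRI-611 and 37.7, 34.2 and 37.4 TPM with DMSO. The contrast was 2.35 (SE 0.179; limma adjusted p = 7.08e-06), and again no treated library overlapped a control.

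PLK2 and SOX9 had no called response in SNU2535 and fell in NCI-H3122. PLK2, a polo-like kinase of the stress response (ENSG00000145632, chromosome 5, 58453982 to 58460260), had 119, 118 and 122 TPM in SNU2535 with TRI-611 and 115, 119.7 and 126 TPM with DMSO, groups that overlapped. Levels in NCI-H3122 were 28.0, 28.0 and 25.6 TPM with TRI-611 and 79.4, 77.3 and 82.6 TPM with DMSO, fully apart, for a contrast of 1.51 (SE 0.0643; limma adjusted p = 6.04e-08). SOX9, a transcription factor of progenitor cells in the lung and gut, had 24.4, 23.1 and 22.9 TPM in SNU2535 with TRI-611 and 21.4, 19.4 and 22.5 TPM with DMSO. Its NCI-H3122 levels were 11.3, 11.6 and 11.6 TPM with TRI-611 and 32.1, 29.3 and 31.4 TPM with DMSO, again without overlap. The SOX9 contrast was 1.5 (SE 0.0814; limma adjusted p = 2.56e-07), and its SNU2535 response of 0.15 did not pass the test, although the treated libraries lay just above the controls.

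MMP1, GJB2, ANTXR2 and DNAJB5 had deeper falls in NCI-H3122 or fell there alone. The collagenase gene MMP1 stood at only 2.86, 2.64 and 3.00 TPM in SNU2535 with TRI-611 and 2.28, 2.69 and 2.25 TPM with DMSO. In NCI-H3122, where it was far more abundant, it had 129.7, 125 and 96.3 TPM with TRI-611 and 389, 353 and 359.7 TPM with DMSO, and the contrast was 1.82 (SE 0.137; limma adjusted p = 4.48e-06). The connexin gene GJB2, whose product forms gap junctions, fell in both lines, with responses of -0.35 in SNU2535 and -2.14 in NCI-H3122 (contrast 1.79, SE 0.136, limma adjusted p = 3.93e-06). ANTXR2, a collagen-binding receptor used by anthrax toxin, stood at 0.13 in SNU2535 without passing the test and fell by 1.57 in NCI-H3122 (contrast 1.69, SE 0.0967, limma adjusted p = 3.90e-07). DNAJB5, a co-chaperone, stood at 0.16 and -1.82 in the same order, and only the second passed (contrast 1.98, SE 0.143, limma adjusted p = 2.65e-06).

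Other genes were on the higher side with a rise in SNU2535 alone. BTG1, an antiproliferative factor that binds the CCR4-NOT deadenylase (ENSG00000133639, chromosome 12, 92140278 to 92145897), had 87.2, 90.6 and 86.8 TPM in SNU2535 with TRI-611 and 30.6, 27.7 and 30.7 TPM with DMSO. For NCI-H3122 the values were 49.8, 51.9 and 44.9 TPM with TRI-611 and 47.1, 45.3 and 46.5 TPM with DMSO. The SNU2535 groups were far apart and the NCI-H3122 groups overlapped (contrast 1.47, SE 0.0776, limma adjusted p = 2.53e-07). CDKN1C, the CDK inhibitor p57, had 6.65, 4.52 and 6.91 TPM in SNU2535 with TRI-611 and 0.840, 1.77 and 1.30 TPM with DMSO. The other line had 9.61, 11.1 and 10.1 TPM with TRI-611 and 9.35, 7.86 and 9.90 TPM with DMSO, with overlap. Its contrast of 1.44 (SE 0.227; limma adjusted p = 0.000908) varied by batch, at 2.02, 0.54 and 1.75 in batches 1, 2 and 3.

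**Figure D3:**
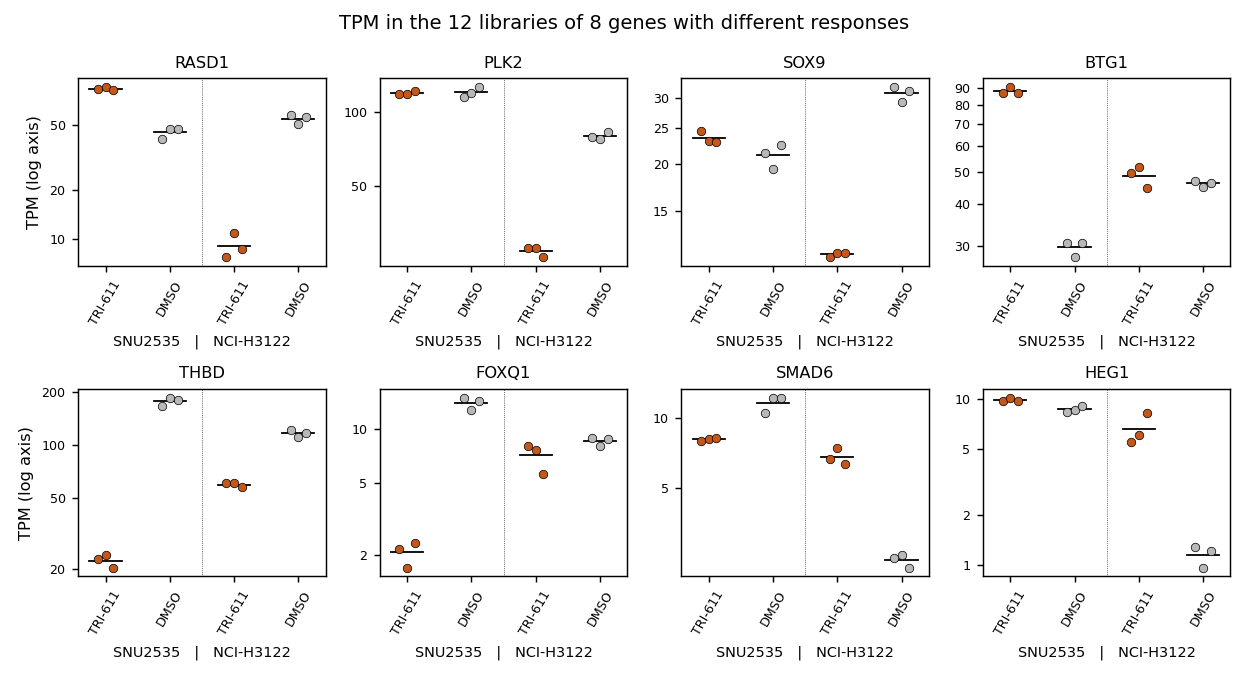
TPM of 8 genes in each library (points; horizontal bars are group means of 3 libraries; log vertical axes), with TRI-611 (orange) left of DMSO (grey) and SNU2535 left of NCI-H3122 in each panel. RASD1 moves in opposite directions in the 2 lines, PLK2 and SOX9 separate widely by treatment in NCI-H3122 alone, BTG1 separates widely in SNU2535 alone, and the treated levels of THBD and FOXQ1 lie lowest in SNU2535.

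On the lower side, THBD, which encodes the endothelial and epithelial anticoagulant thrombomodulin (ENSG00000178726, chromosome 20, 23045633 to 23049741), had 22.6, 23.9 and 20.3 TPM in SNU2535 with TRI-611 and 166, 185 and 179 TPM with DMSO. Within NCI-H3122 it stood at 60.8, 60.9 and 57.7 TPM with TRI-611 and 121, 112 and 117 TPM with DMSO. It fell in both lines without overlap, and the fall was deeper in SNU2535 (contrast -1.98, SE 0.0830, limma adjusted p = 6.04e-08). FOXQ1, a forkhead factor of epithelial cells, had 2.14, 1.69 and 2.33 TPM in SNU2535 with TRI-611 and 15.0, 12.8 and 14.4 TPM with DMSO. Its NCI-H3122 libraries had 8.10, 7.71 and 5.63 TPM with TRI-611 and 8.98, 8.11 and 8.78 TPM with DMSO. The groups lay wide apart in SNU2535 and close together without overlap in NCI-H3122, where the response of -0.25 did not pass, and the contrast was -2.06 (SE 0.169; limma adjusted p = 7.08e-06).

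RASSF10, a member of the Ras-association domain family, fell in SNU2535 and rose slightly in NCI-H3122. It had 22.7, 18.0 and 17.9 TPM in SNU2535 with TRI-611 and 63.9, 66.6 and 66.7 TPM with DMSO. In NCI-H3122, at much lower levels, it had 4.56, 5.16 and 3.60 TPM with TRI-611 and 3.51, 2.89 and 3.04 TPM with DMSO, and the contrast was -2.09 (SE 0.155; limma adjusted p = 3.38e-06). LHX6, a LIM homeobox factor, showed opposed responses too, at -1.10 in SNU2535 and 0.42 in NCI-H3122 (contrast -1.52, SE 0.123, limma adjusted p = 6.81e-06). MID1IP1, which encodes an activator of acetyl-CoA carboxylase in fatty acid synthesis, stood at -1.05 and 0.20 in the same order (contrast -1.25, SE 0.0601, limma adjusted p = 1.34e-07).

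HEG1, TSC22D3 and KIF3C were on the lower side with a rise in NCI-H3122 alone. HEG1, a membrane protein of endothelial junctions, had 9.78, 10.3 and 9.77 TPM in SNU2535 with TRI-611 and 8.42, 8.63 and 9.06 TPM with DMSO. Its level in NCI-H3122 was 5.54, 6.08 and 8.31 TPM with TRI-611 and 1.27, 0.958 and 1.21 TPM with DMSO. Treated libraries lay above controls in both lines, but the SNU2535 response of 0.17 did not pass; the contrast was -1.64 (SE 0.163; limma adjusted p = 3.26e-05). TSC22D3, a leucine zipper protein induced by glucocorticoids and FOXO factors, had 24.9, 24.9 and 26.2 TPM in SNU2535 with TRI-611 and 23.0, 23.0 and 24.9 TPM with DMSO. The NCI-H3122 libraries had 27.3, 30.3 and 24.9 TPM with TRI-611 and 10.1, 8.16 and 8.16 TPM with DMSO, far apart, while the SNU2535 groups touched (contrast -1.44, SE 0.118, limma adjusted p = 7.00e-06). KIF3C, a kinesin subunit, had a contrast of -1.48 (SE 0.183; limma adjusted p = 0.000153).

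The short gene RNU6-1091P, a U6 small nuclear RNA pseudogene, had the lowest contrast of all named genes, at -4.44 (SE 0.710; limma adjusted p = 0.00176). It was at 0 in every treated SNU2535 library and at 10.1, 4.95 and 1.26 TPM with DMSO. In NCI-H3122 it had 6.83, 5.74 and 6.08 TPM with TRI-611 and 0, 1.37 and 1.31 TPM with DMSO. The SNU2535 control libraries were spread widely, and the reads behind these levels are unknown.

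Direct outputs of ERK signalling fell in both lines, and the contrast concerns how far. Of 10 genes in a published MAPK output signature, 10 fell in SNU2535 (21.9% of all genes) and 10 in NCI-H3122 (15.5%). In the contrast 6 were called lower (16.4% of all genes were) and 0 higher (3.71%), with a median contrast of -0.37 against -0.09 for all genes. The same 6 genes were scale-independent calls (8.2% of all genes). The median response of the signature was -1.76 in SNU2535 and -1.29 in NCI-H3122. PHLDA1, a pleckstrin homology-like protein that receptor kinases induce (ENSG00000139289, chromosome 12, 76025447 to 76033932), had 7.10, 8.14 and 7.60 TPM in SNU2535 with TRI-611 and 128, 122 and 126 TPM with DMSO. The NCI-H3122 libraries had 36.0, 37.1 and 33.6 TPM with TRI-611 and 206, 204 and 202 TPM with DMSO, and the contrast was -1.39 (SE 0.0689; limma adjusted p = 1.68e-07). SPRY2, a feedback inhibitor of receptor kinases, and EPHA4, an ephrin receptor, both had contrasts of -0.60 (limma adjusted p = 0.00174 and 0.00107). CCND1, the gene of cyclin D1, stood at -0.40 (limma adjusted p = 0.000734) and the ERK phosphatase gene DUSP4 at -0.34 (limma adjusted p = 0.00592).

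Feedback inhibitors of the cascade did not share 1 direction. Of 23 tested, 5 were called higher (3.71% of all genes) and 9 lower (16.4%) in SNU2535, and 5 (3.49%) and 6 (8.2%) were scale-independent; PHLDA1, SPRY2, SPRY4, DUSP4 and DUSP6 also belong to the signature. The median contrast was -0.11 against -0.09 for all genes, 0.00 against 0.00 after quantile normalization, and -0.31 against -0.10 with a pseudocount of 0.1. SPRED2, which blocks RAF activation, had 9.82, 10.1 and 8.18 TPM in SNU2535 with TRI-611 and 32.2, 33.8 and 33.9 TPM with DMSO. Levels in NCI-H3122 were 82.7, 75.8 and 68.4 TPM with TRI-611 and 117, 108 and 112 TPM with DMSO, so that the fall was deeper in SNU2535 (contrast -1.16, SE 0.109, limma adjusted p = 2.09e-05). DUSP2, a nuclear phosphatase, had a contrast of -1.04 (SE 0.226; limma adjusted p = 0.00638). In the other direction, DUSP5, a nuclear phosphatase specific for ERK, had 24.9, 21.2 and 23.3 TPM in SNU2535 with TRI-611 and 92.2, 83.2 and 70.1 TPM with DMSO. Its NCI-H3122 levels were 16.3, 15.0 and 15.3 TPM with TRI-611 and 133, 137 and 138 TPM with DMSO, a larger fall than in SNU2535 (contrast 1.28, SE 0.118, limma adjusted p = 2.09e-05). DUSP10, whose product acts on JNK and p38, rose in SNU2535 alone, with 173, 182 and 185 TPM in SNU2535 with TRI-611 and 100.4, 103 and 99.3 TPM with DMSO (contrast 0.91, SE 0.112, limma adjusted p = 0.000164). Genes of the RAS-RAF-MEK-ERK core are a separate list, with 0 higher (3.71% of all genes) and 2 lower (16.4%) calls among 21. Of the lower ones 1 was scale-independent (8.2%), and the median contrast was -0.06. The lowest contrast there was at the scaffold gene KSR1, which joins RAF, MEK and ERK. KSR1 fell in SNU2535 and rose in NCI-H3122 (contrast -1.20, SE 0.137, limma adjusted p = 8.92e-05).

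Immediate early genes were called in both directions, with 8 higher and 9 lower of 27 tested, where all genes had 3.71% and 16.4%. As scale-independent calls there were 8 and 7, where all genes had 3.49% and 8.2%. The count of higher calls was 5 without SNU2535 DMSO replicate 2 or 3. Their median contrast of -0.11 was 0.01 under median-ratio scaling. EGR2, a zinc finger factor, fell below 1 TPM in SNU2535, with 0.0765, 0.117 and 0.249 TPM in SNU2535 with TRI-611 and 1.43, 1.24 and 1.60 TPM with DMSO. For NCI-H3122 the values were 1.58, 1.33 and 1.28 TPM with TRI-611 and 13.4, 14.6 and 13.3 TPM with DMSO, and the contrast was 1.54 (SE 0.166; limma adjusted p = 6.00e-05). At the low SNU2535 levels the added 1 in log2(TPM + 1) dampens the fall. In proportion to the DMSO level EGR2 fell by similar amounts in both lines, so no direction is given for EGR2. The 8 higher calls include EGR2 and also EGR1. EGR1 had 14.4, 14.9 and 18.8 TPM in SNU2535 with TRI-611 and 31.8, 29.4 and 65.2 TPM with DMSO, where replicate 3 with DMSO stood well above the other two. The other line had 4.56, 4.50 and 7.26 TPM with TRI-611 and 37.0, 39.7 and 37.4 TPM with DMSO. The EGR1 contrast of 1.37 (SE 0.390; limma adjusted p = 0.0348) kept its call only without SNU2535 DMSO replicate 3 or NCI-H3122 TRI-611 replicate 3. Without any 1 of the other 10 libraries the adjusted p was up to 0.0789. The AP-1 gene JUN had a contrast of 0.44 (limma adjusted p = 0.000348). On the lower side were KLF2, a Krüppel-like factor, at -1.11 (SE 0.209; limma adjusted p = 0.00367), and KLF10 at -0.66 (limma adjusted p = 0.000104).

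Genes of G2 and mitosis rose in NCI-H3122 and for the most part not in SNU2535. Of 60 tested, 54 were called lower in SNU2535 and 0 higher (16.4% and 3.71% of all genes), and 42 of the lower ones were scale-independent (8.2%). The median contrast was -0.43 against -0.09 for all genes, and -0.31 against 0.02 under median-ratio scaling. Within batches 1, 2 and 3 it was -0.41, -0.43 and -0.41, and without 1 library 43 to 53 members were called lower. The median response was 0.06 in SNU2535 and 0.50 in NCI-H3122. In NCI-H3122, 56 members rose and 0 fell (24.6% and 15.5% of all genes), while in SNU2535 13 rose and 4 fell (11.8% and 21.9%). In bulk RNA, more cells in a phase and more RNA per cell cannot be told apart.

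PIF1, a DNA helicase expressed in dividing cells, had 4.03, 5.58 and 6.01 TPM in SNU2535 with TRI-611 and 3.76, 4.28 and 3.96 TPM with DMSO. Within NCI-H3122 it stood at 7.75, 11.2 and 10.9 TPM with TRI-611 and 2.93, 2.73 and 2.58 TPM with DMSO. The SNU2535 groups lay close together, whereas the NCI-H3122 groups were far apart (contrast -1.23, SE 0.199, limma adjusted p = 0.00102). CDC25B, a phosphatase that starts mitosis by activating CDK1, had 202, 216 and 213 TPM in SNU2535 with TRI-611 and 253, 266 and 268 TPM with DMSO. Its NCI-H3122 levels were 70.9, 82.0 and 78.0 TPM with TRI-611 and 45.2, 44.1 and 45.1 TPM with DMSO. It fell in SNU2535 and rose in NCI-H3122 with no overlap in either line (contrast -1.08, SE 0.0695, limma adjusted p = 1.06e-06). The related phosphatase gene CDC25C rose in both lines, at 0.23 in SNU2535 and 1.30 in NCI-H3122 (contrast -1.07, SE 0.110, limma adjusted p = 4.18e-05). CENPE, a kinetochore motor chosen here after its values were seen, stood at -0.03 in SNU2535 without passing the test and rose by 0.94 in NCI-H3122 (contrast -0.97, SE 0.148, limma adjusted p = 0.000817).

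Many promoters of this list carry the cell cycle homology region (CHR), the site that the DREAM and MuvB complexes are known to bind in G2 and mitosis genes, often next to a CCAAT box bound by NF-Y. In RefSeq promoter windows of GRCh38.p14, from 250 bases before to 50 bases after the gene start, TTTGAA on either strand was found in 66.7% of 51 G2 and mitosis genes. It was found in 9.14% of the 9576 tested genes with a window and in 15.4% of all 27305 windows. Among scale-independent calls TTTGAA was found in 13.2% of 866 lower and 9.91% of 343 higher genes. The part of this motif in the contrast was not tested. CCAAT on either strand was found in 74.5% of the list, 36.9% of tested genes and 35.7% of all windows. A match describes letters in a window and does not show that a factor bound there. PIF1, CENPF and KIF18A, 3 called members that hold both motifs, are shown with TTTGAA and CCAAT letters on either strand in capitals. Counted from the gene start, TTTGAA begins at -20 in PIF1, -10 in KIF18A and 40 in CENPF. In CENPF it therefore lies after the start. Each sequence runs 5′ to 3′ along the gene's strand. PIF1 lies at chr15:64825598-64825897 on the minus strand, CENPF, a kinetochore protein gene, at chr1:214602945-214603244 on the plus strand, and KIF18A, a mitotic kinesin gene, at chr11:28108107-28108406 on the minus strand.
PIF1: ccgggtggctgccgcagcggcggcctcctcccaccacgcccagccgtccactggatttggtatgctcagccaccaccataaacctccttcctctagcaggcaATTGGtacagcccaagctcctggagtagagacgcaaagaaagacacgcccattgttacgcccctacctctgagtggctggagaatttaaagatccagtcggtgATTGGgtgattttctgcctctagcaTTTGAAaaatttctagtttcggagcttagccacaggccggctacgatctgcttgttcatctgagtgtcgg
CENPF: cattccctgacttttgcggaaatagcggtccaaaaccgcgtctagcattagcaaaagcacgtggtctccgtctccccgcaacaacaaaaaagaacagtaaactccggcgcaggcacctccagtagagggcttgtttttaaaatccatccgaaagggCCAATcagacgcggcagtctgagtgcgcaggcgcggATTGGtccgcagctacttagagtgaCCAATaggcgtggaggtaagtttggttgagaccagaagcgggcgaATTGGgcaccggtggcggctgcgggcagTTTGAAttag
KIF18A: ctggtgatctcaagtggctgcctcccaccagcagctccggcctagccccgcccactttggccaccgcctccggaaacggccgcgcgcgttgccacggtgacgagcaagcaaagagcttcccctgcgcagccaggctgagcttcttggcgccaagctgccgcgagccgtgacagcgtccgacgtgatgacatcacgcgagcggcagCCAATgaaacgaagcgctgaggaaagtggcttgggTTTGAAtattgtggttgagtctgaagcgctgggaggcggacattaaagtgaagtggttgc
CENPF had 64.2, 79.8 and 76.5 TPM in SNU2535 with TRI-611 and 62.5, 56.2 and 58.5 TPM with DMSO, and in NCI-H3122 79.0, 88.3 and 97.3 TPM with TRI-611 and 42.5, 39.0 and 38.2 TPM with DMSO. KIF18A had 21.1, 24.6 and 24.1 TPM in SNU2535 with TRI-611 and 22.8, 23.2 and 23.0 TPM with DMSO, groups that overlapped, and in NCI-H3122 36.5, 36.6 and 35.1 TPM with TRI-611 and 20.9, 19.4 and 22.4 TPM with DMSO. The contrasts were -0.81 (SE 0.125; limma adjusted p = 0.000912) for CENPF and -0.75 (SE 0.0881; limma adjusted p = 0.000111) for KIF18A.

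For genes of G1, S phase and DNA replication the count depended on the scaling and on single libraries. Of 50 tested, 12 were called lower (16.4% of all genes) and 0 higher (3.71%). As scale-independent calls 2 were lower (8.2% of all genes). Median-ratio scaling gave 6 higher and 2 lower, against 1509 and 1329 of all 13788 genes. Without any 1 of the 3 SNU2535 DMSO libraries, SNU2535 TRI-611 replicates 1 or 3, NCI-H3122 DMSO replicates 2 or 3, or NCI-H3122 TRI-611 replicates 2 or 3, the 12 lower calls became 4 to 7, and with the replicate block within each line 5. The median contrast was -0.11, and 0.01 under median-ratio scaling. D cyclins, their kinases and CDK inhibitors had 1 higher (3.71% of all genes) and 4 lower (16.4%) calls among 15. Scale-independent were 1 (3.49%) and 3 (8.2%), and the median contrast was -0.11. The higher call was the CDK inhibitor CDKN1C, described above (contrast 1.44). On the lower side CDKN2D, the INK4 inhibitor p19, fell in SNU2535 and rose in NCI-H3122 (contrast -1.10, SE 0.141, limma adjusted p = 0.000196). CDKN2C, the INK4 inhibitor p18, had a contrast of -0.67 (limma adjusted p = 4.04e-05).

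**Figure D4:**
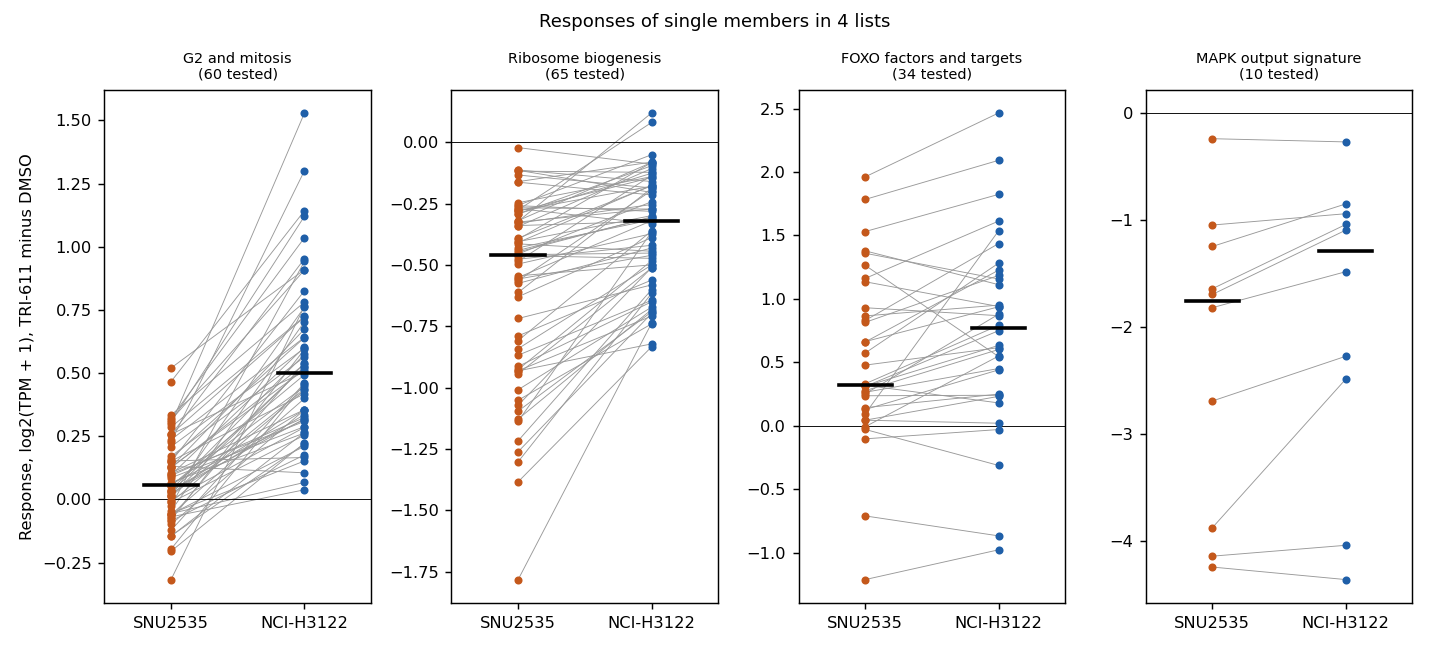
Responses of single genes in 4 lists, as log2(TPM + 1), TRI-611 minus DMSO, in SNU2535 (orange) and NCI-H3122 (blue); lines join the values of 1 gene and thick bars are medians over tested members. Genes of G2 and mitosis shift upward in NCI-H3122 (median 0.50, against 0.06 in SNU2535), and ribosome biogenesis genes lie below 0 in both lines with a lower median in SNU2535 (-0.46, against -0.32).

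Ribosome biogenesis genes, which build and process ribosomal RNA in the nucleolus, fell in both lines, 59 of 65 tested in SNU2535 (21.9% of all genes) and 51 in NCI-H3122 (15.5%). In the contrast 27 were called lower (16.4% of all genes) and 0 higher (3.71%), 17 of them scale-independent (8.2%). Median-ratio scaling gave 17 lower and 2 higher, against 1329 and 1509 of all 13788 genes. The median contrast was -0.21, and -0.09 under median-ratio scaling, where all genes stood at 0.02. With a pseudocount of 5 it was -0.13, where all genes stood at -0.07. RRS1, an assembly factor of the large subunit with the lowest contrast of the list, had 58.0, 63.9 and 61.7 TPM in SNU2535 with TRI-611 and 205, 214 and 219.8 TPM with DMSO. Its level in NCI-H3122 was 120.3, 126 and 120.3 TPM with TRI-611 and 209.6, 202 and 202 TPM with DMSO, and the contrast was -1.04 (SE 0.0588; limma adjusted p = 3.76e-07). POLR1C, a subunit shared by RNA polymerases I and III, had 11.1, 13.4 and 11.8 TPM in SNU2535 with TRI-611 and 27.5, 27.7 and 28.0 TPM with DMSO. Its NCI-H3122 levels were 39.7, 37.8 and 36.8 TPM with TRI-611 and 53.2, 46.5 and 48.6 TPM with DMSO (contrast -0.77, SE 0.0921, limma adjusted p = 0.000123). Treated libraries lay below controls in both lines for RRS1 and POLR1C.

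MYC and its partners bind the E-box CACGTG, and this motif, searched on either strand, was found in 40.7% of 54 ribosome biogenesis windows. It was found in 10.4% of tested genes and in 7.43% of all windows. Among scale-independent calls it was found in 11.8% of 866 lower and 10.2% of 343 higher genes. The part of the E-box in the contrast was not tested. BYSL, which encodes a small-subunit assembly factor, and WDR43, a small-subunit processome gene, were picked among lower calls whose windows hold the motif. Their windows are shown with the E-box in capitals, and lower calls without the motif were not considered. In GRCh38.p14 BYSL lies at chr6:41921249-41921548 and WDR43 at chr2:28894417-28894716, both on the plus strand.
BYSL: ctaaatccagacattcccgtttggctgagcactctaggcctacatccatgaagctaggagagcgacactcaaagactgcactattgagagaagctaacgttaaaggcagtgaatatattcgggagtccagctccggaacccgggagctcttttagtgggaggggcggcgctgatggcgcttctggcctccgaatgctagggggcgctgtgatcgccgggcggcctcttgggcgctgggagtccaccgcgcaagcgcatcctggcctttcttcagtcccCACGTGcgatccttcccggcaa
WDR43: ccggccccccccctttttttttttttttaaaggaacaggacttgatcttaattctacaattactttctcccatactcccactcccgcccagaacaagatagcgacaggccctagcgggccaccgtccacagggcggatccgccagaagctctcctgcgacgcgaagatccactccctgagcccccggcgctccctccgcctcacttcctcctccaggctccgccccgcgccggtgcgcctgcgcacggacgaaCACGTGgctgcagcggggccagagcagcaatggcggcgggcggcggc
BYSL had 19.9, 20.0 and 18.8 TPM in SNU2535 with TRI-611 and 51.0, 49.2 and 48.9 TPM with DMSO, and in NCI-H3122 54.5, 53.8 and 51.0 TPM with TRI-611 and 82.9, 80.3 and 82.4 TPM with DMSO (contrast -0.69, SE 0.0569, limma adjusted p = 7.57e-06). WDR43, chosen after its values were seen, had 35.9, 44.5 and 39.1 TPM in SNU2535 with TRI-611 and 95.0, 91.3 and 94.1 TPM with DMSO. In NCI-H3122 it had 203, 215 and 203 TPM with TRI-611 and 329, 315 and 299.8 TPM with DMSO, and the contrast was -0.62 (SE 0.0892; limma adjusted p = 0.000477). All 4 pairs of treated and control groups were apart.

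MYC itself, the growth factor-induced regulator of these genes, fell in both lines. It had 65.3, 68.0 and 69.4 TPM in SNU2535 with TRI-611 and 188, 207 and 214 TPM with DMSO. In NCI-H3122, where it was more abundant, it had 273, 264 and 275 TPM with TRI-611 and 421, 416 and 427 TPM with DMSO, so the proportional fall was larger in SNU2535 (contrast -0.94, SE 0.0625, limma adjusted p = 1.53e-06). Of 12 tested genes of the MYC network, 2 were called higher (3.71% of all genes) and 6 lower (16.4%), 2 (3.49%) and 4 (8.2%) of them scale-independent. MXD4, a repressor that competes with MYC for MAX, rose in NCI-H3122 alone (contrast -0.95, SE 0.0903, limma adjusted p = 2.45e-05). MXD1, another such repressor, rose in SNU2535 and fell in NCI-H3122 (contrast 0.89, SE 0.0948, limma adjusted p = 5.39e-05), and MYCL, a MYC paralog, did likewise at low levels (contrast 1.05, SE 0.133, limma adjusted p = 0.000181). Transcripts that host small nucleolar RNAs had 7 lower (16.4% of all genes) and 0 higher (3.71%) calls among 22, 6 of the lower ones scale-independent (8.2%). The lowest contrasts there were -1.06 (SE 0.160; limma adjusted p = 0.000646) at SNHG20 and -0.95 (SE 0.108; limma adjusted p = 9.19e-05) at SNHG15.

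FOXO targets, which are known to rise when AKT signalling drops, rose in both lines. Of 34 FOXO factors and targets tested, 23 rose in SNU2535 (11.8% of all genes) and 2 fell (21.9%), while 29 rose in NCI-H3122 (24.6%) and 3 fell (15.5%). In the contrast 2 were called higher (3.71% of all genes) and 13 lower (16.4%) in SNU2535, 2 (3.49%) and 8 (8.2%) of them scale-independent. Median-ratio scaling gave 7 higher and 10 lower, against 1509 and 1329 of all 13788 genes. The median response was 0.33 in SNU2535 and 0.77 in NCI-H3122, and the median contrast was -0.25 (-0.15 under median-ratio scaling, -0.12 after quantile normalization, and -0.04 with a pseudocount of 5, where all genes stood at -0.07). ULK1, the kinase that starts autophagy, had 21.6, 20.3 and 20.0 TPM in SNU2535 with TRI-611 and 12.8, 14.1 and 13.7 TPM with DMSO. The NCI-H3122 libraries had 32.6, 35.2 and 38.4 TPM with TRI-611 and 14.4, 12.8 and 14.7 TPM with DMSO, and the contrast was -0.71 (SE 0.0974; limma adjusted p = 0.000331). BBC3, the gene of the cell death activator PUMA, rose in both lines at 0.83 and 1.44 (contrast -0.61, SE 0.104, limma adjusted p = 0.00154). SESN1 and SESN3, stress proteins that restrain mTORC1, had contrasts of -0.63 and -0.57 (limma adjusted p = 0.00213 and 0.0025). PDK4, which slows pyruvate entry into mitochondria, went the other way (contrast 0.72, SE 0.233, limma adjusted p = 0.0469). That call was lost with the replicate block (adjusted p = 0.0666, and 0.0712 with the block within each line) and without any 1 of the 9 libraries other than those of SNU2535 with TRI-611; without 1 of those PDK4 missed the level of 1 TPM and was not tested. CCNG2, an atypical cyclin gene, had a contrast of 0.27 (SE 0.0722; limma adjusted p = 0.0211), and an adjusted p of 0.0572 with the block within each line and 0.0505 without NCI-H3122 DMSO replicate 3.

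Of 18 tested transcription factors of lung and gut lineages, 9 were called lower in SNU2535 (16.4% of all genes) and 2 higher (3.71%), all 11 scale-independent (8.2% and 3.49%). Their median contrast was -0.40, or -0.30 under median-ratio scaling, -0.27 after quantile normalization and -0.25 with a pseudocount of 5. SOX2, a factor of airway progenitors and squamous tumours, had 4.66, 3.39 and 3.97 TPM in SNU2535 with TRI-611 and 4.01, 2.53 and 3.74 TPM with DMSO. Levels in NCI-H3122 were 110.3, 126 and 118 TPM with TRI-611 and 45.3, 36.7 and 39.0 TPM with DMSO. The SNU2535 groups overlapped at low levels, the NCI-H3122 groups did not, and the contrast was -1.34 (SE 0.190; limma adjusted p = 0.000587). CEBPD, a factor induced by STAT3, fell in both lines and further in SNU2535 (contrast -1.16, SE 0.140, limma adjusted p = 0.000204). NKX2-1, the lung lineage factor, and FOXA1, a pioneer factor, were both chosen after their values were seen. NKX2-1 rose in both lines (contrast -0.73, SE 0.0974, limma adjusted p = 0.000307), and FOXA1 fell in SNU2535 and rose in NCI-H3122 (contrast -0.78, SE 0.0630, limma adjusted p = 6.77e-06). FOXA2 fell in both lines and further in NCI-H3122 (contrast 0.56, SE 0.115, limma adjusted p = 0.00461).

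The 6 squamous markers, which include SOX2 and TP63, summed to 89.8 to 97.0 TPM with TRI-611 and 116.0 to 120.0 TPM with DMSO in SNU2535. In NCI-H3122 they summed to 228 to 270.0 TPM with TRI-611 and 144 to 155 TPM with DMSO, with the desmosomal gene DSG3 at 0 in the controls. Of these markers 4 averaged at least 1 TPM in SNU2535 and 5 in NCI-H3122. The part of this list in the SOX2 result was not tested.

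In the Notch pathway, 10 of 17 tested genes were called lower (16.4% of all genes) and 1 higher (3.71%), 8 (8.2%) and 1 (3.49%) of them scale-independent, with a median contrast of -0.34. HES1, the repressor that Notch induces (ENSG00000114315, chromosome 3, 194136145 to 194138732), had 4.99, 5.04 and 6.43 TPM in SNU2535 with TRI-611 and 22.7, 24.1 and 25 TPM with DMSO. For NCI-H3122 the values were 60.2, 57.8 and 52.1 TPM with TRI-611 and 80.7, 78.9 and 86.9 TPM with DMSO, a smaller proportional fall, and the contrast was -1.42 (SE 0.116; limma adjusted p = 7.00e-06). JAG2, a Notch ligand, rose in NCI-H3122 alone (contrast -0.81, SE 0.0865, limma adjusted p = 5.54e-05), and HES4 fell in SNU2535 and rose in NCI-H3122 (contrast -0.92, SE 0.0962, limma adjusted p = 4.94e-05). LFNG, a sugar transferase that modifies Notch, was the exception, with a larger rise in SNU2535 (contrast 0.73, SE 0.0839, limma adjusted p = 9.19e-05).

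Of 29 genes of BMP and TGF-beta signalling and feedback, 14 were called lower (16.4% of all genes) and 2 higher (3.71%), 9 (8.2%) and 2 (3.49%) of them scale-independent. The call of BMP2, 1 of the 2 higher ones, was lost without any 1 of the 3 SNU2535 DMSO libraries, SNU2535 TRI-611 replicates 1 or 2, or NCI-H3122 DMSO replicates 2 or 3 (adjusted p up to 0.0776). SMAD6, the inhibitory SMAD that BMP signalling induces (ENSG00000137834, chromosome 15, 66702228 to 66782848), had 7.92, 8.12 and 8.22 TPM in SNU2535 with TRI-611 and 10.4, 12.2 and 12.2 TPM with DMSO. The other line had 6.64, 7.4 and 6.31 TPM with TRI-611 and 2.5, 2.58 and 2.27 TPM with DMSO. Treated libraries lay below controls in SNU2535 and above them in NCI-H3122 (contrast -1.64, SE 0.113, limma adjusted p = 1.70e-06). ATOH8, a helix-loop-helix factor of BMP signalling, rose in both lines from low levels. It had 2.46, 2.57 and 3.11 TPM in SNU2535 with TRI-611 and 0.740, 0.901 and 0.974 TPM with DMSO, and in NCI-H3122 5.48, 6.09 and 4.76 TPM with TRI-611 and 0.274, 0.289 and 0.322 TPM with DMSO (contrast -1.32, SE 0.185, limma adjusted p = 0.000368).

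In the Wnt pathway 4 of 21 genes were called higher (3.71% of all genes) and 11 lower (16.4%), 4 (3.49%) and 7 (8.2%) of them scale-independent. The higher calls were 2 without NCI-H3122 DMSO replicate 1 or 3. DKK1, a secreted Wnt inhibitor, rose in SNU2535 and fell in NCI-H3122. It had 78.1, 71.5 and 76.2 TPM in SNU2535 with TRI-611 and 45.4, 43.1 and 47.8 TPM with DMSO. Its NCI-H3122 levels were 17.2, 13.9 and 15.3 TPM with TRI-611 and 27.5, 25.5 and 32.0 TPM with DMSO, without overlap in either line (contrast 1.55, SE 0.119, limma adjusted p = 4.48e-06). The receptor gene FZD2 rose in both lines and further in NCI-H3122 (contrast -1.14, SE 0.110, limma adjusted p = 2.55e-05), and FZD1 fell in SNU2535 and rose in NCI-H3122 (contrast -1.0, SE 0.0918, limma adjusted p = 1.76e-05). Of 13 Eph receptors and ephrins, which signal between touching cells, 9 were called lower (16.4% of all genes) and 1 higher (3.71%), 7 (8.2%) and 1 (3.49%) scale-independent, with a median contrast of -0.49. EPHA2 and EPHA4 also belong to the MAPK signature. Without NCI-H3122 TRI-611 replicate 1, 2 were called higher. EPHB3 had 70.2, 64.3 and 69.9 TPM in SNU2535 with TRI-611 and 47.6, 53.3 and 51.6 TPM with DMSO, and in NCI-H3122 52.2, 50.9 and 48.3 TPM with TRI-611 and 18.1, 17.5 and 18.8 TPM with DMSO, so that its rise was larger in NCI-H3122 (contrast -1.01, SE 0.0751, limma adjusted p = 3.36e-06). EFNB2, an ephrin ligand, fell in SNU2535 alone (contrast -0.75, SE 0.0592, limma adjusted p = 5.35e-06).

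Feedback genes of STAT3 signalling differed most at SOCS3, which blocks cytokine receptors and JAK kinases (ENSG00000184557, chromosome 17, 78356778 to 78360077). It had 20.3, 20.4 and 21.8 TPM in SNU2535 with TRI-611 and 71.3, 80.3 and 73.3 TPM with DMSO. Within NCI-H3122 it stood at 9.57, 9.71 and 9.28 TPM with TRI-611 and 11.8, 11.2 and 12.6 TPM with DMSO. Both falls were free of overlap, and the contrast was -1.51 (SE 0.0803; limma adjusted p = 2.53e-07). Over the 25 tested genes of this pathway 3 were called higher (3.71% of all genes) and 9 lower (16.4%), with 3 of each scale-independent (3.49% and 8.2%). BCL3, a STAT3 target of the IκB family, had a contrast of -0.75 (SE 0.144; limma adjusted p = 0.00367), and STAT3 itself stood at 0.32 (limma adjusted p = 0.00834).

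Growth factor ligands had a median contrast of 0.29, the highest of the 48 lists with at least 10 tested members, with a median response of -0.54 in SNU2535 and -0.67 in NCI-H3122. Of 15 tested, 7 were called higher (3.71% of all genes) and 2 lower (16.4%), and all 9 were scale-independent (3.49% and 8.2%). VEGFA, the angiogenic factor, had 9.2, 8.31 and 8.27 TPM in SNU2535 with TRI-611 and 20.2, 21.3 and 21.4 TPM with DMSO. Its level in NCI-H3122 was 9.08, 9.19 and 9.42 TPM with TRI-611 and 33.3, 34.5 and 32.3 TPM with DMSO, and the contrast was 0.55 (SE 0.0748; limma adjusted p = 0.000302). PDGFB, a platelet-derived growth factor chain, fell in NCI-H3122 alone (contrast 0.85, SE 0.104, limma adjusted p = 0.000144), as did the ERBB3 ligand gene NRG1 (contrast 0.66, SE 0.103, limma adjusted p = 0.000832), which stood near 1 to 2 TPM there. EREG, an EGFR ligand, fell in both lines (contrast 0.56, limma adjusted p = 0.004). KITLG, which encodes the KIT ligand, ran against the list. It had 226, 229 and 218 TPM in SNU2535 with TRI-611 and 368, 348 and 376 TPM with DMSO, and in NCI-H3122 28.9, 29 and 27.7 TPM with TRI-611 and 22.8, 23.2 and 22.8 TPM with DMSO, falling in the first line and rising in the second (contrast -1.0, SE 0.0529, limma adjusted p = 2.53e-07).

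Plasminogen and coagulation genes had 6 higher (3.71% of all genes) and 1 lower (16.4%) calls among 13, all 7 scale-independent (3.49% and 8.2%), with a median contrast of 0.28 (0.16 with a pseudocount of 5, and 0.42 after quantile normalization). The exception was THBD, described above. PLAUR, the urokinase receptor gene, fell in both lines and further in NCI-H3122. It had 53.1, 46.6 and 45.7 TPM in SNU2535 with TRI-611 and 68.6, 68.9 and 71.9 TPM with DMSO, and in NCI-H3122 39.0, 41.0 and 39.4 TPM with TRI-611 and 86.8, 82.7 and 84.7 TPM with DMSO (contrast 0.55, SE 0.0734, limma adjusted p = 0.000266). PLAT, the tissue plasminogen activator gene, and its relative PLAU had contrasts of 0.62 (SE 0.111; limma adjusted p = 0.00259) and 0.39 (SE 0.0743; limma adjusted p = 0.00284). Of 21 integrin, laminin and collagen genes, 6 were called higher (3.71% of all genes) and 1 lower (16.4%), all 7 scale-independent (3.49% and 8.2%). ITGB1, the shared integrin beta chain gene, rose in SNU2535 and fell in NCI-H3122 (contrast 0.32, SE 0.0576, limma adjusted p = 0.00224).

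YAP and TEAD targets had 6 higher (3.71% of all genes) and 7 lower (16.4%) calls among 24, 6 (3.49%) and 4 (8.2%) of them scale-independent, and 4 lower calls with the replicate block within each line. CTGF, a matricellular protein gene and standard YAP target, had 16.5, 13.1 and 15.4 TPM in SNU2535 with TRI-611 and 19.0, 15.3 and 16.7 TPM with DMSO. In NCI-H3122 it had 4.69, 2.95 and 5.01 TPM with TRI-611 and 14.4, 14.9 and 20.8 TPM with DMSO. The SNU2535 groups overlapped and the NCI-H3122 groups did not (contrast 1.60, SE 0.246, limma adjusted p = 0.00114). CYR61, its relative, had a contrast of 0.73 (SE 0.117; limma adjusted p = 0.00123). WWTR1, the gene of the YAP paralog TAZ, fell in both lines and further in NCI-H3122 (contrast 0.74, SE 0.0736, limma adjusted p = 3.27e-05).

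Cytosolic ribosomal protein genes had 6 higher (3.71% of all genes) and 0 lower (16.4%) calls among 79, 3 of them scale-independent (3.49%), with a median contrast of 0.08. Median-ratio scaling called 45 of the 79 higher, against 1509 of all 13788 genes. The 6 calls became 3 without any 1 library other than SNU2535 DMSO replicate 3, SNU2535 TRI-611 replicate 3 and NCI-H3122 TRI-611 replicates 1 and 2, and 2 to 3 with the replicate block. Nuclear oxidative phosphorylation genes had 3 higher (3.71% of all genes) and 1 lower (16.4%) among 76, all 4 scale-independent (3.49% and 8.2%). Median-ratio scaling gave 22 higher and 1 lower, against 1509 and 1329 of all 13788 genes. The 3 higher calls of this list became 0 without SNU2535 DMSO replicate 1 and 1 without SNU2535 TRI-611 replicate 2 or NCI-H3122 DMSO replicate 2. Among 48 lists with at least 10 tested members, 35 had a median contrast below 0 with TPM as deposited, 18 under median-ratio scaling and 25 after quantile normalization. The sign of the median changed under median-ratio scaling for 17 lists and under quantile normalization for 12, all with a median within 0.153 of 0.

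**Figure D5:**
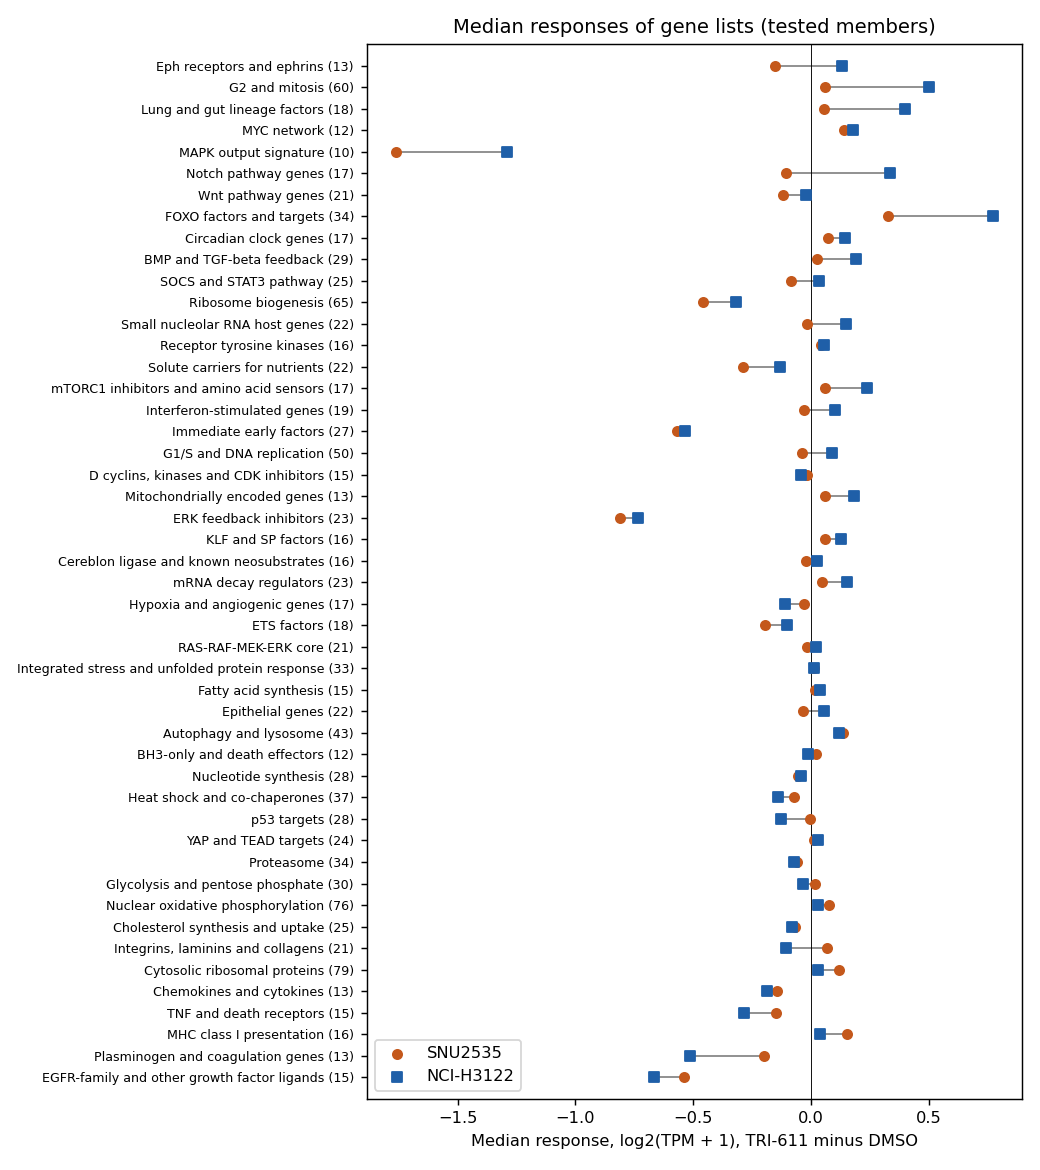
Median response to TRI-611 of the tested members of 48 lists (number in parentheses), as log2(TPM + 1), TRI-611 minus DMSO, in SNU2535 (orange circles) and NCI-H3122 (blue squares); lists run by median contrast, lowest at the top. Eph receptors, G2 and mitosis genes and lineage factors lie at the top and growth factor ligands at the bottom, while the sign of the median contrast changed with the scaling for lists whose median lay within 0.153 of 0.

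CYP1A1, a monooxygenase and standard target of the aryl hydrocarbon receptor, shows how the contrast depends on the level. It had 2.87, 2.77 and 2.33 TPM in SNU2535 with TRI-611 and 0.135, 0.103 and 0.470 TPM with DMSO. The NCI-H3122 libraries had 309, 339 and 320.4 TPM with TRI-611 and 58.4, 50.9 and 57.0 TPM with DMSO. The rise in SNU2535 started below 0.5 TPM, where the added 1 in log2(TPM + 1) dampens it, and the contrast was -0.95 (SE 0.144; limma adjusted p = 0.000669). With a pseudocount of 0.1 in place of 1 the contrast was 0.65 (limma adjusted p = 0.341), so no direction is given for CYP1A1. AHR, the gene of the receptor, rose in SNU2535 and fell in NCI-H3122 (contrast 0.72, SE 0.0868, limma adjusted p = 0.000134), and TIPARP, another of its targets, fell in SNU2535 alone (contrast -0.62, SE 0.0573, limma adjusted p = 1.79e-05).

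Among the 262 genes with opposed responses, 45 rose in SNU2535 and fell in NCI-H3122 and 217 did the reverse. Under median-ratio scaling the split was 158 and 121, and after quantile normalization 106 and 132. Of the 262, the contrast of 43 and 204 in the same order was scale-independent. ZFP36L1, which encodes a protein that marks AU-rich mRNAs for decay (ENSG00000185650, chromosome 14, 68787660 to 68796253), had 445, 450.2 and 479 TPM in SNU2535 with TRI-611 and 354, 354 and 357 TPM with DMSO. Levels in NCI-H3122 were 70.7, 67.2 and 65.5 TPM with TRI-611 and 135, 129 and 141 TPM with DMSO, with no overlap in either line (contrast 1.35, SE 0.0580, limma adjusted p = 6.04e-08). PLPP3, a lipid phosphatase gene, had 31.8, 34.6 and 35.3 TPM in SNU2535 with TRI-611 and 49.5, 53.9 and 51.2 TPM with DMSO. Its NCI-H3122 levels were 5.12, 5.49 and 5.23 TPM with TRI-611 and 3.38, 2.77 and 3.84 TPM with DMSO, the reverse pattern (contrast -1.13, SE 0.115, limma adjusted p = 3.89e-05). ZBED2, a zinc finger factor gene, rose in SNU2535 and fell in NCI-H3122 (contrast 1.01, SE 0.0888, limma adjusted p = 1.30e-05).

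ALK RNA gave no called contrast. ALK had 21.7, 21.7 and 20.4 TPM in SNU2535 with TRI-611 and 22.5, 26.6 and 25.3 TPM with DMSO. For NCI-H3122 the values were 15.6, 14.8 and 14.8 TPM with TRI-611 and 17.3, 15.3 and 15.9 TPM with DMSO, and the contrast was -0.12 (SE 0.0923; limma adjusted p = 0.413), close to the median of all genes and 0.00 under median-ratio scaling. EML4, the fusion partner, had 32.8, 35.6 and 33.9 TPM in SNU2535 with TRI-611 and 40.0, 37.3 and 37.6 TPM with DMSO. The other line had 141, 151 and 143 TPM with TRI-611 and 145, 137 and 142 TPM with DMSO. Its contrast was -0.20 (SE 0.0614; limma adjusted p = 0.0403), but the call was lost with the replicate block (adjusted p = 0.0662, and 0.115 with the block within each line), under the other 2 scalings and without any 1 library other than SNU2535 DMSO replicate 2, SNU2535 TRI-611 replicate 2, NCI-H3122 DMSO replicate 1 and NCI-H3122 TRI-611 replicate 1 (adjusted p up to 0.0981).

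In NCI-H2228, which has its own controls, the response of RASD1 stood at -0.25, PLK2 at -0.69, SOX9 at 0.03 and BTG1 at 0.50. THBD stood at -1.39, SOCS3 at -0.90, SMAD6 at -0.09 and HEG1 at 0.17. The median of the G2 and mitosis list was 0.11 there, nearer to SNU2535 (0.06) than to NCI-H3122 (0.50). Of 2683 called genes with a mean of at least 1 TPM in NCI-H2228, 56.2% had a response nearer to that of SNU2535, against 51.5% of the 13162 tested genes with that level.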

How the data were processed

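Poly-A RNA libraries were made with a kit that carries unique molecular identifiers, per the labels' protocols. Build GRCh38 and the tools STAR 2.5.2b, fastp 0.23.1, DESeq2, Subread 1.5.2 and featureCounts come from the submitters' processing notes. The sources used here give no annotation, strand setting or handling of the identifiers. The authors deposited TPM values, which were used as deposited. Names were taken from the table, with 485 genes unnamed; 56898 IDs were found in GENCODE 29, which gave coordinates. Promoter windows came from RefSeq.

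For each contrast, limma 3.58.1 (R 4.3.3) was run on log2(TPM + 1) over 12 libraries (group means, empirical Bayes with trend and robust settings, two-sided, Benjamini-Hochberg adjustment), since TPM fits no count test. The added 1 dampens responses of low genes. Where the level differs between the lines, it can shrink a contrast, enlarge it or, as at CYP1A1, reverse it. The fit was tested on simulated data with independent noise around group means. Those data held no scaling or batch error, so they do not bear on either. The labels' batch equals the replicate number and pairs samples across groups; deviations from group means of same-numbered libraries correlated at r = -0.0858 to 0.13 across genes, so the block was an alternative. Named genes were ALK, EML4, the 12 widest contrasts each way (at least 2 TPM in each line, same sign in all batches), up to 3 called members per list and direction, and 6 opposed genes each way. The members and lists were chosen with earlier results of these data known. Alternatives were pseudocounts of 0.1 and 5, other filters and scalings, replicate blocks, all 18 libraries, plain empirical Bayes, protein-coding genes only, a contrast of at least 1, and leaving out each library; scale-independent calls and list counts per alternative were added after seeing the data. DUSP4, JUN, CENPE, CENPF, KIF18A, WDR43, NKX2-1, FOXA1, EREG, BMP2 and PLAU were described after their values were seen where the rule did not name them.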

Additional observations from a re-analysis of the deposited data

Results flagged for a closer look

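The responses of the lines ran in opposite directions, with a called difference, at 262 genes. By the size of the smaller of the 2 responses, the contrasts on the side that rose in SNU2535 and fell in NCI-H3122 were 3.35 at RASD1, 1.55 at DKK1, 1.29 at CYCSP55, 1.07 at AP000692.2, 1.02 at TMEM86A and 1.01 at ZBED2. On the other side they were -4.44 at RNU6-1091P, -1.46 at FAM43A, -1.35 at AC009065.5, -1.28 at AC021106.1, -1.13 at PLPP3 and -1.07 at AC135050.6. All 12 had the same sign of the contrast in each batch, and 11 kept their call without any 1 library. RNU6-1091P did so in 9 fits and missed the level of 1 TPM without any 1 of the 3 SNU2535 DMSO libraries. CYCSP55 and AC021106.1 are pseudogenes, and AC009065.5, AC135050.6, AP000692.2, PLPP3, ZBED2, TMEM86A and DKK1 overlap another annotated gene, so their reads cannot be told apart from it.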

How the results depend on the processing

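Counts of called genes stayed within 1.5 times of 2769 for every alternative but a minimum size: with an absolute contrast of at least 1, 167 genes were called, 53 higher, 114 lower and 44 opposed. Median-ratio scaling gave 1509 higher and 1329 lower, quantile normalization 965 and 1412, and no filter on low values left 173 opposed genes. Without 1 library, 2100 to 2853 genes were called, 396 to 525 higher, 1652 to 2328 lower and 197 to 270 opposed. With the replicate block, following the labels' pairing by batch, 2538 genes were called, and 2100 with the block within each line; of the 233 named genes, 12 and 26 lost their call, among them EML4 and PDK4. At an unadjusted p under 0.05, 4585 genes passed. The contrast of CYP1A1 reversed with a pseudocount of 0.1 (0.65). Of the named genes, 18 had a weaker call under median-ratio scaling, 28 after quantile normalization and 13 with a pseudocount of 5. With no filter on low values 40 had a weaker call, and without 1 library 13 to 31 did. Leaving out a library kept 10 named genes, such as ATOH8, CYP1A1, EGR2, KSR1 and SESN3, from reaching 1 TPM often enough to be tested in some fits. Depth is unknown, so counting error could not be given.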
